A study of Homo sapiens with 12 samples.

Results

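The genes described here are the ZNF zinc finger genes of human chromosome 19 that were expressed in HepG2 cells. They were taken from the count table by symbol (ZNF followed by digits), by their place on chromosome 19 and by a raw count of at least 10 reads in each of the 10 RNA-seq libraries. Of 239 such genes on the chromosome 200 passed, among 12743 genes of the whole table that had at least 10 reads in every library. The raw counts thus chose the members, and the values at the limit are a description only: the members with the lowest minimum count were ZNF763 and ZNF793 with 12 reads and ZNF257 with 15, and those just outside were ZNF540 and ZNF837 with 8 reads and ZNF229 with 7. Of the 39 genes left out, 3 were listed at 0 in every library and 8 were still tested for differences across the whole table. A count below the limit does not mean that a gene was silent. ZNF20, listed at 0 reads, had a mean of 6.24 in the authors' separate TPM abundances, and ZNF812, with at most 1 read, had 1.59.

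HepG2 is an established human hepatocellular carcinoma line, and the study used it to follow insulin receptor (IR) signaling and the presence of IR on chromatin. The libraries were titled 0, 5, 10, 30 and 240 min after insulin stimulation, with 2 replicates at each time, and 1 further library was a ChIP-seq with an IR antibody, with 1 input. All cells had been grown in EMEM with 10% FBS. The other protocol texts in the labels appear on the wrong libraries: those of the RNA libraries, 0 min included, describe DNA extraction and 3 nM insulin for 5 min, and those of the ChIP libraries describe an RNA kit, a 2 day culture with insulin and BSA, a washout of 30 min and 3 nM insulin. The times are therefore taken from the titles. For insulin experiments in HepG2 cells, the methods of the study describe 2 days in EMEM without supplements. Then came 2 days in EMEM with BSA and either a physiologic or a pathologic (3 nM) level of insulin, and a washout before the acute dose. They do not say which level the cells of the RNA-seq had received. No library is titled as cells kept without insulin to any later time, so that effects of insulin and of time in culture cannot be told apart. The labels do not say whether replicates came from separate cultures. The methods of the study call the RNA-seq samples biologically independent and the experiment a single one, so that p-values measure the spread between libraries of 1 experiment. In bulk RNA, fewer cells with a transcript and less of it per cell cannot be told apart.

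Most zinc finger proteins of these clusters carry tandem C2H2 fingers that read DNA, and many also carry a KRAB domain. KRAB binds the corepressor TRIM28 (KAP1), which brings in the histone methyltransferase SETDB1 and HP1 proteins (CBX1, CBX3, CBX5) and leads to silenced chromatin with trimethylated histone H3 lysine 9. Many KRAB zinc finger proteins bind transposable elements, and their genes multiplied by tandem duplication, which is why they lie in clusters on chromosome 19. Because neighbours are often close copies, some reads can fit several of them, and the values of single members are uncertain to that extent.

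The members lay in clusters that were numbered along the chromosome, with a new cluster wherever the next ZNF gene started more than 1 Mb away. Of 16 such clusters, 7 held more than 10 members: cluster 2 (7.07 to 9.88 Mb, 13 members), cluster 3 (11.6 to 12.7 Mb, 25), cluster 5 (19.8 to 24.3 Mb, 22), cluster 9 (36.7 to 38.3 Mb, 23), cluster 12 (44.1 to 45.6 Mb, 22), cluster 15 (52.1 to 54.1 Mb, 32) and cluster 16 (56.0 to 59.0 Mb, 47), in hg19 coordinates.

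IR peaks were found at the starts of many of these genes, and whether a start carried a peak went with the cluster and with a short run of letters in the promoter. The stretches below are 120 bases each from hg19 and are shown because they hold that run, or lack it, at members of the clusters concerned. Capitals mark ACTACA and, where CCCAG follows it after 3 letters of any kind, the whole of that longer run. A copy on the other strand appears as its reverse complement, so that its capitals end in TGTAGT. Both runs were chosen after the letters of the peaks had been seen. The first 6 lie in IR peaks at members of clusters 9, 12 and 16, on the plus strand. They are chr19:37569189-37569308 upstream of ZNF420, chr19:37263750-37263869 upstream of ZNF850, chr19:44617419-44617538 upstream of ZNF225, chr19:44555992-44556111 upstream of ZNF223, chr19:56652445-56652564 across the start of ZNF444 and chr19:57998978-57999097 across the start of ZNF419.
ZNF420: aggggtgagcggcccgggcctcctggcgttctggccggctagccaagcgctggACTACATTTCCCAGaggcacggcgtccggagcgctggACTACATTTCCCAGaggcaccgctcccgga
ZNF850: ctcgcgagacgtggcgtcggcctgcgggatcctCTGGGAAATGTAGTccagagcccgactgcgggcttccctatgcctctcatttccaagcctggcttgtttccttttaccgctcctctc
ZNF225: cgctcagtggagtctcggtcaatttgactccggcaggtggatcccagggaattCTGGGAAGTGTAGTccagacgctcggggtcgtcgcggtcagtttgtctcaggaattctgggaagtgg
ZNF223: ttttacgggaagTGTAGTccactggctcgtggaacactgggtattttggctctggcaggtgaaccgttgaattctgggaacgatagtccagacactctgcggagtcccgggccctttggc
ZNF444: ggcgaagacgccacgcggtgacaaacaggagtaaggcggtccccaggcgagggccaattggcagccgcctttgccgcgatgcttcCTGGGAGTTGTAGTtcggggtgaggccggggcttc
ZNF419: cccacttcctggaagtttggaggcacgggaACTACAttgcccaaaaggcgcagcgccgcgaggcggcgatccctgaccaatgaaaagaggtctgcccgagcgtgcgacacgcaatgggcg
The other 3 come from promoters without an IR peak, in clusters 3, 5 and 15, each on the strand of its gene. They are chr19:11998510-11998629 of ZNF69 on the plus strand, and chr19:23578403-23578522 of ZNF91 and chr19:52531721-52531840 of ZNF614 on the minus strand.
ZNF69: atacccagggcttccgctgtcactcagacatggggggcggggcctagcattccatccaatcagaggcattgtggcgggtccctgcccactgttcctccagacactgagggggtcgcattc
ZNF91: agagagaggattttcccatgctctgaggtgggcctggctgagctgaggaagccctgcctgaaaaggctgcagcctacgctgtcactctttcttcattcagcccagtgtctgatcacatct
ZNF614: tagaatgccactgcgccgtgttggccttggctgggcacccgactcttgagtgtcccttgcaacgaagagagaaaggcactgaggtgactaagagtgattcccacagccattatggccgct
The stretch of ZNF420 holds the longer run in 2 copies that share their neighbouring letters, and the 3 stretches without a peak hold no ACTACA.

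RNA libraries held 18347109 to 45005769 reads counted on genes, and the members took 52835 to 114135 of them. All 8 hepatocyte markers were expressed and summed to 40220 to 50630 TPM per library. Markers of other cells summed to 49.7 to 61.4 TPM for leukocytes, of which PTPRC was listed at 0, 0.958 to 2.07 for endothelium and 4.53 to 6.48 for fibroblasts. Expression is given as CPM, reads per 1000000 after TMM scaling between libraries, and levels are compared between genes only as TPM, the authors' length-corrected abundance.

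The members were expressed at low levels. Their median mean TPM over the 10 libraries was 7.64, with quartiles of 4.57 and 13.2, beside 10.8 for the 196 expressed ZNF genes of other chromosomes, 17.5 for the 719 other expressed genes of chromosome 19 and 24.0 for all expressed genes. The highest member was ZNF146, a protein made of little but zinc fingers, at 69.3 TPM. It was followed by ZNF614 with 42.1 TPM, ZNF121 with 35.9, ZNF787 with 33.3 and ZNF581 with 33.0. Together the members took 0.244% and 0.254% of the reads at 0 min.

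Over time, the summed level of the members stood apart from 0 min at 5 and at 240 min on the TMM scale. Per ERCC read it lay slightly above 0 min at 5 min, below it at 10 and 30 min, and overlapped it at 240 min. Their CPM added up to 2460 and 2563 at 0 min, 2649 and 2858 (5 min), 2437 and 2503 (10 min), 2445 and 2566 (30 min), and 2935 and 2912 (240 min). Both libraries at 5 min and both at 240 min lay above both at 0 min, while those at 10 and 30 min overlapped or lay close to them. The mean was 16.4% above 0 min at 240 min and 9.64% above at 5 min. For the ZNF genes of other chromosomes the same sums were 5.83% and 6.32% above. Scaled instead by the ERCC spike-in reads, the mean at 240 min was 1.07 times that at 0 min, where the TMM scaled ratio was 1.16. Per ERCC read, the members had 0.151 and 0.157 reads at 0 min and 0.176 and 0.155 at 240 min, which overlap. At 10 min they had 0.138 and 0.104, and replicate 2 there had the highest ERCC share of all libraries (2.36%, beside 1.73% in replicate 1).

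**Figure D1:**
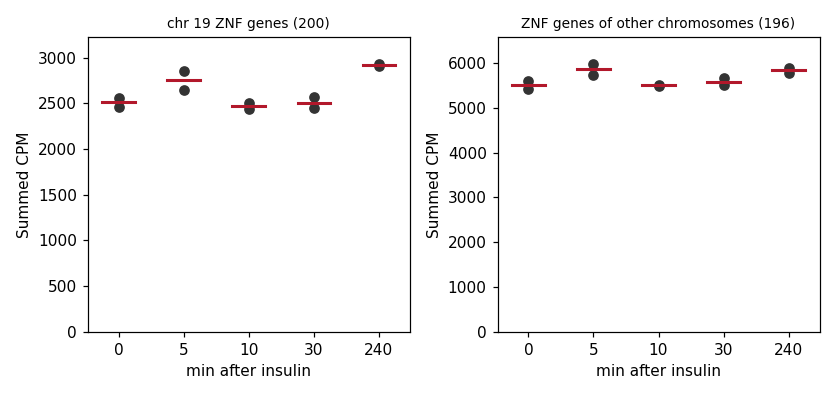
Summed CPM of the 200 chromosome 19 ZNF genes (left) and of the 196 expressed ZNF genes of other chromosomes (right), by time after insulin. Points are single libraries and lines the mean of 2 replicates, and on the left both points at 240 min (2935 and 2912) lie above all points at 0, 10 and 30 min.

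Member by member, the highest mean level fell at 240 min for 104 of the 200 genes and at 5 min for 66. Over all genes tested these shares were 38% and 19%, beside 52.0% and 33.0% of the members. The lowest mean fell at 10 min for 67 members (33.5%, beside 12.4% of all genes) and at 5 min for 7 (3.5%, beside 20.9%). The highest mean was a median of 1.36 times the lowest, beside 1.24 times over all genes, and it was at least 2 times the lowest for 10 members, up to 2.50 times for ZNF404.

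After 5 min of insulin most members had a fitted fold change slightly above 0, and none passed the test. With edgeR 0 of 200 were called at an adjusted p under 0.05, beside 0% of all 13852 genes tested, and DESeq2 and limma also called 0. At an unadjusted p under 0.05 the members numbered 45, beside 14.3% of all genes tested. Both 5 min libraries lay above both 0 min libraries for 99 members (49.5%, beside 24.5% of all genes) and below them for 15 (7.5%, beside 23.9%). The fitted fold change was above 0 for 164 members, with a median of 0.14 on the log2 scale, beside a median of 0.00 over all genes, 0.06 for the other ZNF genes and -0.10 for the other genes of chromosome 19. Compared with the mean at 0 min, the median member stood 0.07 higher in replicate 1 at 5 min and 0.21 higher in replicate 2, on the log2 CPM scale, so that the size of this shift differed between the libraries. Without replicate 2 the fitted median was 0.06, and without replicate 1 it was 0.20. After correction for GC content and exon length the median was 0.09. Members had a median exonic GC content of 43.3%, beside 47.9% over all genes tested, and its part in the shift was not tested beyond that correction.

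ZNF264, a gene of cluster 16 called in 3 of the 6 comparisons, stood highest at 5 min. It was at 31.6 and 33.5 CPM at 0 min, 40.8 and 43.4 (5 min), 31.2 and 29.2 (10 min), 31.5 and 31.2 (30 min), and 37.5 and 37.4 (240 min). Both libraries at 5 min lay above all the others. For 5 min against 0 min its log2 fold change was 0.36 ± 0.06 (SE) with an edgeR adjusted p of 0.143, which missed the threshold.

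At 10 and at 30 min few members differed from 0 min. The edgeR test called 1 of 200 at each time, beside 0.137% of all genes tested at 10 min and 0.332% at 30 min, both of them higher (0.0433% of all genes were higher and 0.0938% lower at 10 min, 0.188% and 0.144% at 30 min). The median log2 fold changes were -0.05 and -0.02. At an unadjusted p under 0.05 the members numbered 14 at 10 min and 18 at 30 min, beside 5.13% and 8.12% of all genes. Both 10 min libraries lay below both 0 min libraries for 61 members (30.5%, beside 19.1%) and above them for 32 (16.0%, beside 18.0%). For 30 min these were 44 members (22.0%, beside 19.8%) and 28 (14.0%, beside 18.5%). ZNF57 was the gene called at both times. It was at 11.4 and 12.3 CPM at 0 min, 12.5 and 13.9 (5 min), 16.1 and 17.1 (10 min), 16.6 and 16.6 (30 min), and 21.3 and 20.5 (240 min). No library from 10 min on overlapped those at 0 and 5 min, and the 240 min libraries lay highest. The rise was 0.48 ± 0.09 at 10 min (adjusted p = 0.0208) and 0.48 ± 0.09 at 30 min (adjusted p = 0.0158) by edgeR on the log2 scale. At 10 min the call was lost without either 0 min or either 10 min library, and at 30 min without either 0 min or either 30 min library, where 0 members were called. With DESeq2 no member was called at 10 min, and with limma on log2(TPM + 1) none at either time.

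Set together, the 4 libraries of 10 and 30 min had a higher fitted mean than the 4 of 0 and 5 min for only 41 of the 200 members, and few members passed the test. In this comparison edgeR called 7 members, 2 higher and 5 lower, beside 0.751% of all genes tested, of which 0.209% were higher and 0.541% lower. The median log2 fold change was -0.10, beside 0.00 over all genes. Of the 196 ZNF genes of other chromosomes 6 were called, 3 higher and 3 lower, with a median of -0.05. At an unadjusted p under 0.05 the members numbered 57, beside 9.46% of all genes. All 4 later libraries lay below all 4 earlier ones for 18 members, or 9.0%, beside 3.28% of all genes tested, and above them for 3 members, or 1.5%, beside 2.03%. The count depended on single libraries. It was lower without either replicate at 0 min or at 10 min, without replicate 2 at 5 min and without replicate 1 at 30 min. DESeq2 called 4. The shares of all genes called in these runs are not given here.

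Of the 5 that fell in that comparison, 4 were called higher at 240 min than at 30 min, as were 42.5% of all members and 19.8% of all genes. The 30 min libraries also chose these 5, so that the later rise is not independent of the earlier fall and is a description. ZNF566 was at 10.9 and 12.2 CPM at 0 min, 12.4 and 12.4 (5 min), 7.23 and 9.58 (10 min), 9.12 and 9.86 (30 min), and 19.9 and 18.7 (240 min). Its libraries at 10 and 30 min all lay below the others, and the fall was -0.44 ± 0.08 (edgeR adjusted p = 0.0124). From 30 to 240 min it rose by 1.03 ± 0.11 on the log2 scale (edgeR adjusted p = 7.36e-07).

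ZNF420 (also known as Apak, a KRAB protein described as a regulator of p53) was also lower at 10 and 30 min than at the other times. It was at 6.26 and 6.35 CPM at 0 min, 7.44 and 7.66 (5 min), 5.47 and 5.49 (10 min), 5.35 and 4.66 (30 min), and 8.56 and 8.52 (240 min). The pairs of libraries of the 5 times did not overlap each other, with those at 30 min lowest and those at 240 min highest. Its changes were -0.39 ± 0.09 (edgeR adjusted p = 0.0321) for 10 and 30 min against 0 and 5 min, and 0.76 ± 0.12 (adjusted p = 6.05e-05) for 240 against 30 min.

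ZNF626 fell by 0.49 on the log2 scale and ZNF264 by 0.27, with edgeR adjusted p of 0.0143 and 0.00453. ZNF615 fell by 0.33 (adjusted p = 0.042) and was the 1 of the 5 without a call at 240 min against 30 min (0.23 ± 0.11, adjusted p = 0.114). ZNF844, which rose, was at 5.10 and 6.20 CPM at 0 min, 7.07 and 8.01 (10 min), 7.39 and 8.84 (30 min), and 4.08 and 4.42 (240 min). Its 240 min libraries lay below all others, and its rise at 10 and 30 min was 0.44 ± 0.10 (edgeR adjusted p = 0.0321).

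**Figure D2:**
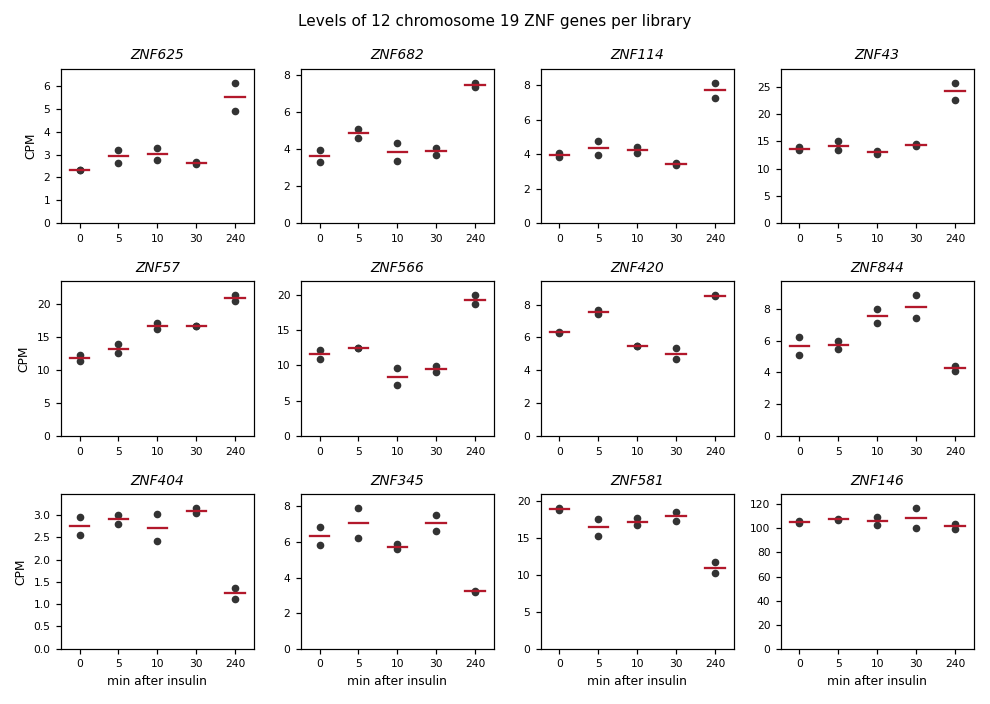
CPM of 12 named chromosome 19 ZNF genes by time after insulin, with 1 point per library and a line at the mean of 2 replicates. ZNF625, ZNF682, ZNF114 and ZNF43 lay highest at 240 min, ZNF404, ZNF345 and ZNF581 lay lower at 240 min, and ZNF146 lay between 99.3 and 117 CPM throughout.

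At 240 min the share of members called was somewhat above that of all genes, and the members called were mostly higher. Against 0 min, edgeR called 99 of 200 members, beside 41.0% of all genes tested. Of these 82 rose and 17 fell, where 20.6% of all genes were called higher and 20.4% lower. The median log2 fold change was 0.22, with quartiles of -0.05 and 0.46, beside 0.00 over all genes. It was 0.17 for the other ZNF genes, of which 76 rose and 26 fell out of 196, and -0.09 for the other genes of chromosome 19, of which 81 rose and 178 fell out of 719. At an unadjusted p under 0.05 the members numbered 109, beside 48.7% of all genes. Both 240 min libraries lay above both 0 min libraries for 116 members (58.0%, beside 34.8% of all genes) and below them for 35 (17.5%, beside 34.9%).

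The ERCC reads gave another scale. With it edgeR called 19 members, 13 higher and 6 lower, beside 1059 of the 13852 genes tested, of which most were lower. The median over all genes moved to -0.12. The median of the members was 0.11 on that scale, which is 0.23 above that of all genes. Corrected for GC content and exon length, 99 of 199 members were called, 76 higher and 23 lower. The share of all genes called with that correction is not given here, so these counts are not read against it. The median of the members was 0.17, beside -0.03 over all genes.

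ZNF625, of cluster 3, had the largest rise among the members named by the rule. It was at 2.32 and 2.31 CPM at 0 min, 2.65 and 3.21 (5 min), 2.75 and 3.28 (10 min), 2.69 and 2.57 (30 min), and 6.16 and 4.89 (240 min). Both 240 min libraries lay above all others, and the log2 fold change against 0 min was 1.27 ± 0.17 (edgeR adjusted p = 7.71e-06).

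ZNF682, of cluster 5, was at 3.29 and 3.93 CPM at 0 min, 4.06 and 3.69 (30 min), and 7.36 and 7.57 (240 min). The levels at 240 min did not overlap those of any earlier time, and the rise was 1.01 ± 0.14 (edgeR adjusted p = 1.53e-05). ZNF442 rose by 0.97 ± 0.21 (edgeR adjusted p = 0.00106), from 1.72 and 1.32 CPM to 2.76 and 3.05. ZNF441 rose by 0.96 ± 0.10 (edgeR adjusted p = 6.46e-07), from 9.05 and 8.53 CPM to 17.6 and 16.3. These 4 genes belong to clusters 3 and 5, in which no start carried an IR peak.

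ZNF114, which stands alone as the member of its cluster, rose by 0.96 ± 0.14 (edgeR adjusted p = 1.31e-05), from 4.08 and 3.84 CPM to 7.28 and 8.15. ZNF43, a KRAB gene of cluster 5, rose by 0.83 ± 0.09 (edgeR adjusted p = 5.01e-07), from 13.9 and 13.4 CPM to 25.8 and 22.6. ZNF614, the member with the second highest TPM, went from 69.1 and 69.2 CPM at 0 min to 106 and 103 at 240 min (0.60 ± 0.05, edgeR adjusted p = 4.45e-08). In each of these 3 the libraries at 240 min lay above all earlier ones.

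The falls were fewer and included the member with the widest range. ZNF404 was at 2.55 and 2.96 CPM at 0 min, 2.81 and 3.02 (5 min), 3.02 and 2.43 (10 min), 3.05 and 3.16 (30 min), and 1.12 and 1.37 (240 min). Both 240 min libraries lay below all others, with a log2 fold change against 0 min of -1.19 ± 0.22 (edgeR adjusted p = 0.000227).

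ZNF345 fell from 5.85 and 6.85 CPM at 0 min to 3.20 and 3.26 at 240 min (-1.0 ± 0.16, edgeR adjusted p = 4.52e-05). ZNF581, among the 5 members with the highest TPM, fell from 18.8 and 19 CPM to 10.2 and 11.7 (-0.80 ± 0.10, edgeR adjusted p = 2.25e-06). ZNF446, ZNF490 and ZNF846 fell by 0.73, 0.68 and 0.68 on the log2 scale, with edgeR adjusted p of 0.0334, 0.00182 and 0.006. That the 240 min libraries did not overlap those at 0 min was a condition for naming these 6 as falls. ZNF146, the member with the highest TPM, was at 104 and 106 CPM at 0 min and 99.3 and 104 at 240 min, with a difference of -0.05 ± 0.06 that did not pass (edgeR adjusted p = 0.513).

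Against 30 min, which shares its 240 min libraries with the comparison above, edgeR called 102 members at 240 min, beside 38.2% of all genes tested. Of these 85 were higher and 17 lower, where 19.8% of all genes were higher and 18.4% lower, and the median log2 fold change was 0.23. At an unadjusted p under 0.05 there were 114, beside 46.2%. The 240 min libraries lay above those at 30 min for 117 members (58.5%, beside 33.7% of all genes) and below them for 35 (17.5%, beside 32.3%). ZNF114 had the largest rise (1.16 ± 0.15, edgeR adjusted p = 3.53e-06), from 3.37 and 3.50 CPM at 30 min. ZNF442 followed with 1.13 ± 0.23, ZNF625 with 1.08 ± 0.17, ZNF566 with 1.03 ± 0.11 and ZNF443 with 1.01 ± 0.13. ZNF404 had the largest fall (-1.33 ± 0.22, edgeR adjusted p = 9.08e-05), and ZNF844 fell by 0.93. Over the 5 times together, the test of any difference called 105 members, beside 38.3% of all genes and 109 of the 196 ZNF genes of other chromosomes. For 240 against 30 min, 106 of those 196 were called, 84 higher and 22 lower. These shares are thus not particular to the ZNF genes of chromosome 19.

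**Figure D3:**
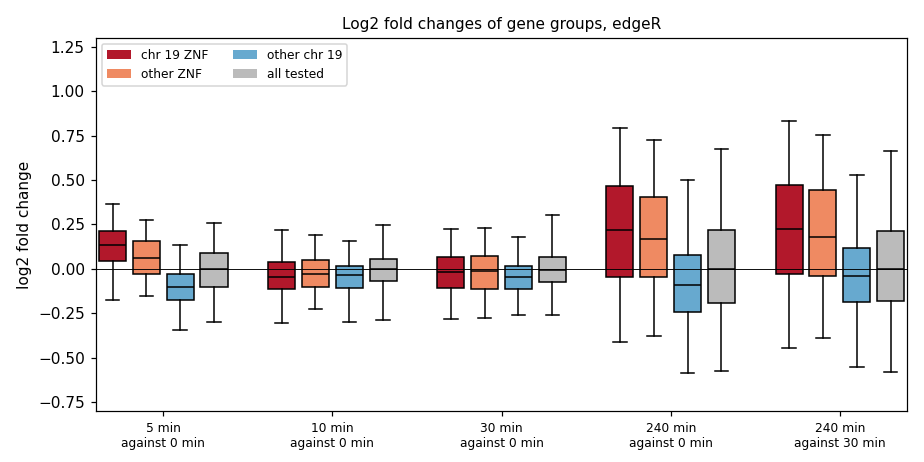
Log2 fold changes from edgeR in 5 comparisons for the chromosome 19 ZNF genes (200), the expressed ZNF genes of other chromosomes (196), the other expressed genes of chromosome 19 (719) and all genes tested (13852). Boxes span the quartiles with the median as a line and whiskers reach the 5th and 95th percentiles; the medians of the chromosome 19 ZNF genes are 0.14 at 5 min, -0.05 at 10 min, -0.02 at 30 min and 0.22 at 240 min against 0 min.

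The rises at 240 min were spread unevenly over the clusters, which is given as a description and read against the 20.6% of all genes called higher and the 20.4% called lower. In cluster 5, 13 of 22 members rose and 0 fell against 0 min (median log2 fold change 0.43). In cluster 15, 16 of 32 rose and 0 fell (median 0.19), and in cluster 3, 14 of 25 rose and 3 fell (median 0.32). Cluster 9 had 10 of 23 higher and 1 lower (median 0.34), and cluster 16 had 14 of 47 higher and 5 lower (median 0.12). In clusters 12 and 2 the directions were mixed: 4 of 22 rose and 4 fell in cluster 12 (18.2% each, near the shares over all genes, median 0.03), and 2 of 13 rose and 4 fell in cluster 2 (median -0.08).

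**Figure D4:**
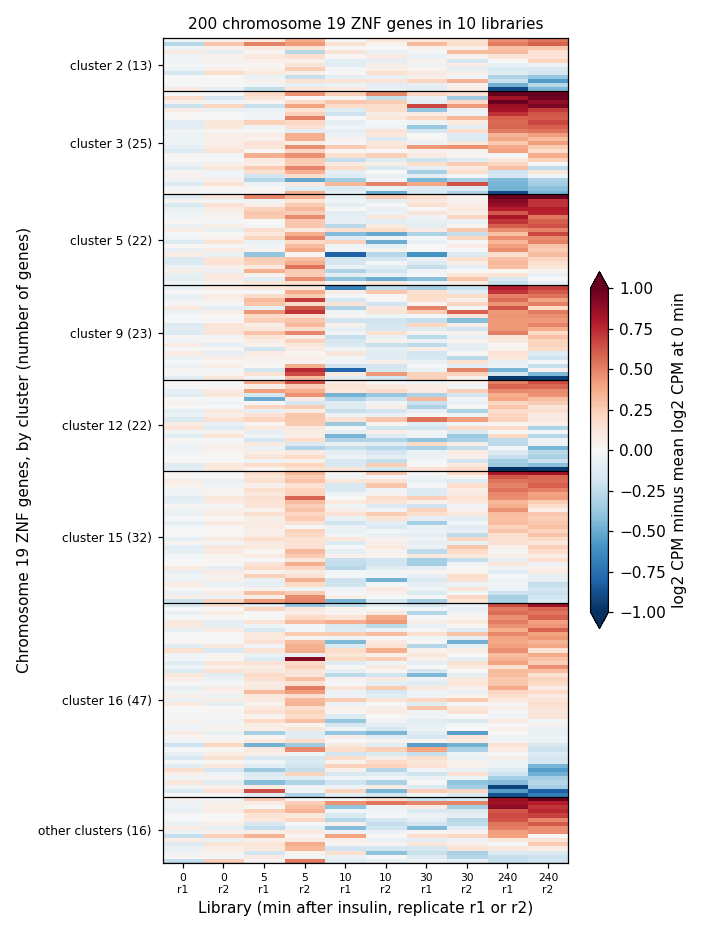
Log2 CPM of each of the 200 chromosome 19 ZNF genes (rows) in the 10 libraries (columns, r1 and r2 are the replicates), minus the gene's mean log2 CPM at 0 min, with 0.1 CPM added and colours capped at 1. Rows are grouped by cluster and ordered within it by the fold change at 240 min; red prevails in both 240 min columns and, more weakly, in those at 5 min, with more in replicate 2 (median 0.21) than in replicate 1 (median 0.07).

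Members known to bind transposable elements were followed by name. ZNF91, which binds SVA elements, was at 31.3 and 33.8 CPM at 0 min, 34.7 and 47.0 (5 min), 31.1 and 30.2 (10 min), 27.6 and 30.4 (30 min), and 40.2 and 35.0 (240 min). Its mean was highest at 5 min, where the replicates lay far apart. Both 240 min libraries lay above those at 0, 10 and 30 min, and the difference passed against 30 min (0.39 ± 0.11, edgeR adjusted p = 0.00728) but not against 0 min (0.21 ± 0.10, adjusted p = 0.117). ZNF649 rose from 11.8 and 11.5 CPM at 0 min to 20.5 and 21.0 at 240 min (0.83 ± 0.10, edgeR adjusted p = 1.6e-06), and ZNF765 rose by 0.28 ± 0.09 (edgeR adjusted p = 0.0128). ZNF93, which binds L1 elements, was among the genes below the limit of 10 reads.

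The corepressor partners did not move in 1 direction. Of 18 genes of the KRAB and HP1 silencing machinery, 5 were higher and 4 lower at 240 min against 0 min by edgeR, beside 20.6% and 20.4% of all genes. Their median log2 fold change was -0.03, and 0 of them were called at 5, 10 or 30 min. TRIM28, the partner of the KRAB domain, was at 208 and 199 CPM at 0 min and 193 and 200 at 240 min, a difference of -0.05 that did not pass (edgeR adjusted p = 0.464). UHRF1, a reader of hemimethylated DNA, rose by 0.64 ± 0.07 (edgeR adjusted p = 6.76e-07). CBX5, the HP1 alpha protein, rose by 0.47 ± 0.05 (edgeR adjusted p = 1.01e-06). SETDB1 fell by 0.20 ± 0.06 (edgeR adjusted p = 0.0125) and MORC2, which acts with the HUSH silencing complex, by 0.26 ± 0.05 (edgeR adjusted p = 0.000358). ZNF274, itself a member that recruits SETDB1 to the ends of ZNF genes, differed by -0.04 ± 0.09 and did not pass (edgeR adjusted p = 0.732).

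IR peaks lay at 64 of the 200 members counting 5 kb on either side of each gene body, a share of 32.0% (Wilson 95% interval 25.9% to 38.8%). The share was 23.0% for the ZNF genes of other chromosomes, 26.3% for the other expressed genes of chromosome 19 and 16.5% for all expressed genes. With 20 kb on either side the members (37.5%) no longer stood above the other genes of chromosome 19 (38.8%), and the shares were 30.1% and 22.0% for the other ZNF genes and all expressed genes. The intervals cover counting error only, and there was 1 ChIP-seq library and thus no replicate check. Within 1 kb of the gene start a peak was found for 59 members (29.5%, interval 23.6% to 36.2%), beside 19.9%, 18.4% and 13.0% in the same groups. These were 56 separate peaks, since ZNF146 and ZNF565, ZNF345 and ZNF790, and ZNF569 and ZNF570 each shared 1. The centres of the peaks lay at a median of 22 bases upstream of the start, and 49 of 59 lay within 200 bases of it.

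Peaks at member starts had higher scores than the table in general. Their median score was 176, beside 79.0 for all 1971 peaks, and 45 of 56 were above that median, but peaks of chromosome 19 as a whole had a median of 172. The highest score was at ZNF444, a SCAN domain gene, with 2036, which ranked 54 among all peaks. It was followed by ZNF225 with 1289, ZNF223 with 868, ZNF224 with 528, ZNF420 with 490, ZNF419 with 473, ZNF227 with 455 and ZNF146 with 445. The peak at ZNF225 also lay within 5 kb of the body of ZNF224, which has 1 of its own at the start.

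The peaks were concentrated in clusters 9, 12 and 16. There, 12 of 23 (52.2%), 15 of 22 (68.2%) and 27 of 47 (57.4%) members had a peak within 1 kb of the start. Clusters 2, 3 and 5 had 0 of 13, 0 of 25 and 0 of 22, for which the Wilson intervals reach 22.8%, 13.3% and 14.9%, and cluster 15 had 1 of 32 (3.13%, interval 0.554% to 15.7%). The other expressed genes within the bounds of clusters 9, 12 and 16 had peaks at 2 of 10, 1 of 18 and 4 of 24 starts. Within cluster 2, where no member start had a peak, 5 of 27 other genes had 1. In clusters 3, 5 and 15 the other genes had peaks at 0 of 4, 0 of 3 and 0 of 5 starts.

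The letters ACTACA went with these peaks. As background, ACTACA followed by CCCAG after 3 letters is the core of a promoter element known to be bound by ZNF143 and THAP11. In windows of 300 bases around the centres of the 56 peaks at member starts, ACTACA was found on either strand in 43 (76.8%) and the longer run, which contains it, in 31 (55.4%). In the 1019 other peaks near a start these shares were 33.3% and 16.9%. In the peaks at members that held ACTACA, the nearest copy lay a median of 47.0 bases from the centre, and 10 of the 43 held at least 2 copies. For the other peaks near a start that held the letters, these values were 45.0 bases and 99 of 339.

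In promoters, taken as 250 bases before to 50 after the start, ACTACA was found in 45 of 59 members with a peak (76.3%) and in 17 of 141 without (12.1%), beside 9.84% of the promoters of all expressed genes. The longer run was found in 52.5%, 7.80% and 2.69%. Read the other way, 45 of the 62 members with ACTACA had a peak (72.6%), and 14 of the 138 without it (10.1%). For all expressed genes these shares were 40% and 10.1%, and for the other ZNF genes 47.8% and 16.2%. By cluster, ACTACA was found at 11 of 23 members in cluster 9, 16 of 22 in cluster 12 and 26 of 47 in cluster 16, beside 3 of 13 in cluster 2, 2 of 32 in cluster 15 and 0 in clusters 3 and 5. In cluster 12, 15 of the 16 with the letters had a peak.

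Other motifs differed less between members with and without a peak. This contrast is a description only, because ACTACA was chosen after the letters of these peaks had been seen and the other motifs were not. The ETS letters CCGGAAG were found in 42.4% and 32.6% of these promoters, beside 17.1% over all expressed genes. GGGCGG, the box of SP and KLF factors, was found in 55.9% and 68.1%, beside 66.8%. CCAAT was found in 44.1% and 53.2%, beside 36.3%, and the NRF1 letters, GCGC and TGCGC with 1 letter between them, in 13.6% and 10.6%, beside 10.6%. The median GC content of the promoters was 58.0% with and 59.3% without a peak, beside 63.7% over all expressed genes. A match is a run of letters and was not tested as a binding site.

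**Figure D5:**
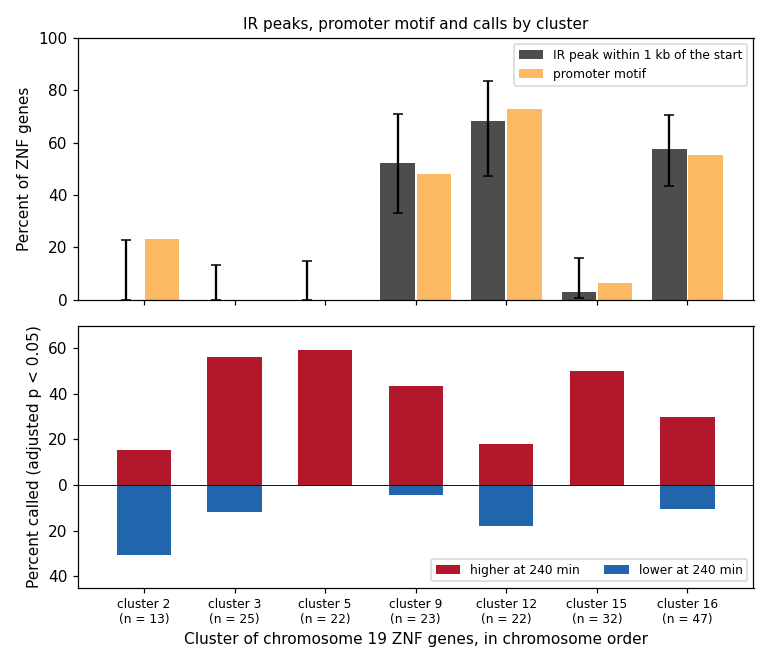
Upper panel: percent of chromosome 19 ZNF genes with an IR peak within 1 kb of the start (grey, with Wilson 95% intervals) and with ACTACA in the promoter (orange), in the 7 clusters with more than 10 such genes. Lower panel: percent called higher (red, upwards) or lower (blue, downwards) at 240 min against 0 min by edgeR; clusters 9, 12 and 16 have the peaks (52.2%, 68.2% and 57.4%), and in clusters 3, 5, 9, 15 and 16 more genes were called higher than lower.

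Members with and without an IR peak at the start had like levels and both rose more often than they fell at 240 min. The median mean TPM was 6.85 for the 59 with a peak and 7.76 for the 141 without. Against 0 min, 21 of the 59 rose and 8 fell (median log2 fold change 0.13), and 61 of the 141 rose and 9 fell (median 0.25). At 5 min the medians were 0.13 and 0.14. The difference between these 2 sets was not tested, because the peaks follow the clusters and neighbours in a cluster are often close copies. At the strongest peak, ZNF444 was at 23.9 and 24.8 CPM at 0 min, 23.4 and 23.7 (30 min), and 19.2 and 19.3 (240 min). Its 240 min libraries lay below all others (-0.34 ± 0.07, edgeR adjusted p = 0.000692). ZNF225, with the next highest score, went from 3.94 and 3.88 to 5.56 and 6.20 CPM (0.58 ± 0.14, edgeR adjusted p = 0.00271), and ZNF223 and ZNF419 did not pass at 240 min against 0 min (0.15 ± 0.12 and 0.04 ± 0.12, edgeR adjusted p = 0.325 and 0.819).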

How the data were processed

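RNA-seq of HepG2 cells at 5 times after insulin (10 libraries) and an IR ChIP-seq (1 library with input) were analysed from the deposited files. Per the labels and methods, the authors trimmed reads with Trim Galore 0.6.4, aligned them to hg19 with STAR 2.6.1d and deposited raw counts per gene from featureCounts 1.6.4, with strandedness set to reverse. They marked duplicates, and removal is not stated. ChIP-seq reads were aligned by the authors with BWA. How reads that fit several copies were counted is not given in the sources used here. The authors also deposited StringTie abundances in TPM, and a HOMER table of MACS2 2.2.7.1 peaks with a peak score and a distance to the nearest start. The unit of that score is not stated, and it was used only to rank peaks.

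Counts were tested with edgeR 4.0.16 in R 4.3.3: TMM, filterByExpr by time, then the quasi-likelihood test in 1 model of 10 libraries, with p-values Benjamini-Hochberg adjusted over 13852 genes, called under 0.05. The 92 ERCC rows (1.59% to 2.36% of counts) stayed out of library sizes. Each standard error was the fold change over the root of F. On simulated data 78.5% of 200 changed genes among 13732 were recovered in the comparison of 240 with 0 min (90.0% at fold 2, 67.0% at fold 1.41), and 5.99% of calls were false. Peaks, promoters and letters were read in hg19 (GRCh37), with start and strand from the deposited abundances. GC content and exon length came from GENCODE for 12684 genes (91.6%).

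The members, lists and naming rule were chosen with earlier results of these data known, and ACTACA and the longer run after the sequences were seen. Named are, in each comparison, up to 6 largest rises and 6 largest falls among called members that average 1 CPM or more and whose groups do not overlap, the 5 members with the highest TPM, the 8 with the highest peak scores, those called in at least 3 of 6 comparisons, and the members at the limit of 10 reads. Others named are on fixed lists of corepressors and transposon-binding members, or stand beside a printed sequence. Sorting members by KRAB domain was planned and not run, as no protein table was used here. Replicate numbers were not used to pair the libraries in the main model. Correlations of same-numbered deviations were -0.12 to 0.13 over all genes and -0.07 to 0.22 over the members, which cannot show whether the cultures were paired. Replicates differed by more than sampling noise at each time (chi-square per degree of freedom 2.86 to 6.46). The alternatives are those given with the limits.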

Additional observations from a re-analysis of the deposited data

How the results depend on the processing

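Medians of the members relative to all genes kept their sign in every alternative run at 5 min (0.06 to 0.20), at 10 min (-0.07 to -0.01), at 240 min against 0 min (0.18 to 0.24) and against 30 min (0.19 to 0.26), and for 10 and 30 min against 0 and 5 min (-0.13 to -0.07), but not at 30 min (-0.05 to 0.02). At 10 min the ERCC share differed between replicates 1 and 2 (1.73% and 2.36%), so that values on that scale are less certain there. ERCC scaling moved the median of all genes by -0.33 at 10 min, -0.13 at 30 min and -0.12 at 240 min against 0 min. With it, members called numbered 19 at 240 min against 0 min, 36 against 30 min (31 higher and 5 lower), 0 at 10 min, 0 at 30 min, 2 for 10 and 30 min against 0 and 5 min and 48 for any difference, and the summed level rose 1.07 times. Of the members called at 240 min against 0 min 82.8% were higher, and with ERCC scaling 68.4%, while over all genes these shares were 50.2% and 31.3%. For all genes it was 60.7% with limma on log2(TPM + 1). Counts of members called in the alternative runs are given without the share of all genes called in the same run. They show only how far each count moved, and a run that calls more members may call more of all genes.

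Without a filter on low counts, 6 members were called at 5 min, 4 at 10 min, 2 at 30 min and 13 for 10 and 30 min against 0 and 5 min. The likelihood ratio test called 1 at 5 min and 2 at 10 min. DESeq2 called 0 at 10 min and 4 for 10 and 30 min against 0 and 5 min. limma on log2(TPM + 1), on log2(TPM + 0.1) and on only those genes averaging 1 TPM or more called 0 at 10 min, 0 at 30 min and 1 for 10 and 30 min against 0 and 5 min. Thinning every library to the smallest total gave 0 at 10 min and 0 at 30 min. Peaks assigned by HOMER's nearest gene gave a share of 23.5%, beside 18.9% of the other ZNF genes, 13.2% of the other chromosome 19 genes and 9.1% of all expressed genes. The cause of these differences was not tested.

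Leaving out each library in turn gave 0 to 3 members at 5 min, 0 to 1 at 10 min, 0 to 1 at 30 min, 70 to 101 at 240 min against 0 min, 68 to 104 against 30 min, 2 to 7 for 10 and 30 min against 0 and 5 min, and 71 to 107 for any difference. The 3 calls at 5 min came without replicate 1 at 5 min. With the replicate number as a block, edgeR called 102 members at 240 min against 0 min, 104 against 30 min, 109 for any difference and 7 for 10 and 30 min against 0 and 5 min. RLE and upper-quartile scaling, at least 10 counts in every library, only the times compared and the correction for GC content and exon length stayed within 1.5 times of each count. Of 33 single calls named by the rule, 18 were kept in every alternative, none reversed, and 94 of 785 values lost the threshold.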
